A study of Macaca mulatta with 16 samples.

Results

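Antigen processing and presentation genes were followed across the fetal lungs of 16 rhesus macaques. A list of 10 genes was chosen: B2M, TAP1, TAP2, TAPBP, PSMB8, PSMB9, NLRC5, CIITA, CD74 and CTSS. Of these, 8 had a row in the count table of 22515 genes, and all 8 passed the filter on low counts together with 19199 genes in all. In Ensembl's rhesus identifiers they are B2M (ENSMMUG00000060797), TAPBP (ENSMMUG00000003875), PSMB8 (ENSMMUG00000011301), PSMB9 (ENSMMUG00000011304), NLRC5 (ENSMMUG00000000769), CIITA (ENSMMUG00000007777), CD74 (ENSMMUG00000009113) and CTSS (ENSMMUG00000010670). No row was paired with the symbols TAP1 or TAP2, so neither was analysed here.

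Whole fetal lung was sequenced, with 1 library per animal. The 4 preterm controls were delivered at 131 to 135 days of gestation and the 2 term controls at 156 and 157 days, and neither group received LPS or steroid. LPS 16h comprised 4 animals given 1 mg of LPS, a cell wall component of Gram-negative bacteria, into the amniotic fluid at 129 or 130 days and delivered 16 hours later. LPS 5d comprised 3 animals given the same dose at 126 to 129 days and delivered after 5 days, at 131 to 134 days. LPS + Beta-Ac 5d comprised 3 animals that received LPS at 126 or 127 days while the dam received betamethasone acetate, a synthetic glucocorticoid, at 0.125 mg/kg into muscle, and these were delivered after 5 days at 131 or 132 days. Animals given Beta-Ac alone were not analysed here, so the effect of the steroid can only be read on top of LPS. The labels give neither sex nor batch.

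MHC class I molecules display peptides from proteins made inside a cell to CD8 T cells, and almost every nucleated cell carries them. The proteasome cuts the proteins, the TAP1 and TAP2 transporter carries the peptides into the endoplasmic reticulum, TAPBP (tapasin) bridges the transporter to the empty class I heavy chain, and B2M (beta-2-microglobulin) is the light chain of the finished complex. Interferon gamma makes cells exchange catalytic subunits of the proteasome for PSMB8, PSMB9 and PSMB10, which forms the immunoproteasome, and NLRC5 switches on transcription of the class I genes. MHC class II molecules display peptides from swallowed material to CD4 T cells and are carried mainly by macrophages, dendritic cells and B cells, although alveolar type 2 cells of the lung also make them. CIITA is the master switch of class II genes, CD74 (the invariant chain) guards the peptide groove of new class II molecules, and CTSS (cathepsin S) is the protease that cuts CD74 away. In the RefSeq annotation of the assembly T2T-MMU8v2.0, PSMB9, TAP1, PSMB8 and TAP2 are neighbours in this order, flanked by the class II genes MAMU-DMB and MAMU-DOB. The RefSeq tables given here held names and positions of genes but no sequences, so none are printed.

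Totals per library ran from 30596371 to 48052891 counts in LPS 16h and from 20169363 to 28348816 in all other animals, so depth moved with the 16-hour group and its part in the results was not tested. Levels are given as CPM, counts scaled to a common library size after normalization of composition. The median correlation of a library with the rest of its own group was 0.95 to 0.98, lowest between the term controls 200 and 201 (0.954) and for preterm control 209 (0.959). The highest correlation with a single animal of another group exceeded the own-group median for 200 (0.966), 201 (0.969), 209 (0.963), 239, 242 and 249. Transcripts that define lung tissue were present in every group, with a summed level of 5 lung markers of 2534 CPM or more in each animal. A change was called where limma gave a Benjamini-Hochberg adjusted p below 0.05 over all genes tested and the level differed at least 2-fold. In whole tissue, fewer cells of a type and less RNA per cell cannot be told apart.

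At 16 hours after LPS, all 8 genes were called higher than in preterm controls. Across all genes tested, 8.3% were called higher in this comparison. The median of the 8 log2 fold changes was 2.06, and the median over all genes was -0.09. Every LPS 16h animal lay above every preterm control for each of the 8 genes, a separation found in 17% of all genes. The increases ran from 2.70-fold for TAPBP to 5.53-fold for PSMB8. At 5 days B2M, TAPBP and NLRC5 overlapped the preterm controls, every LPS 5d animal lay above them for the other 5 genes, and CD74 was 3.20-fold higher.

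**Figure D1:**
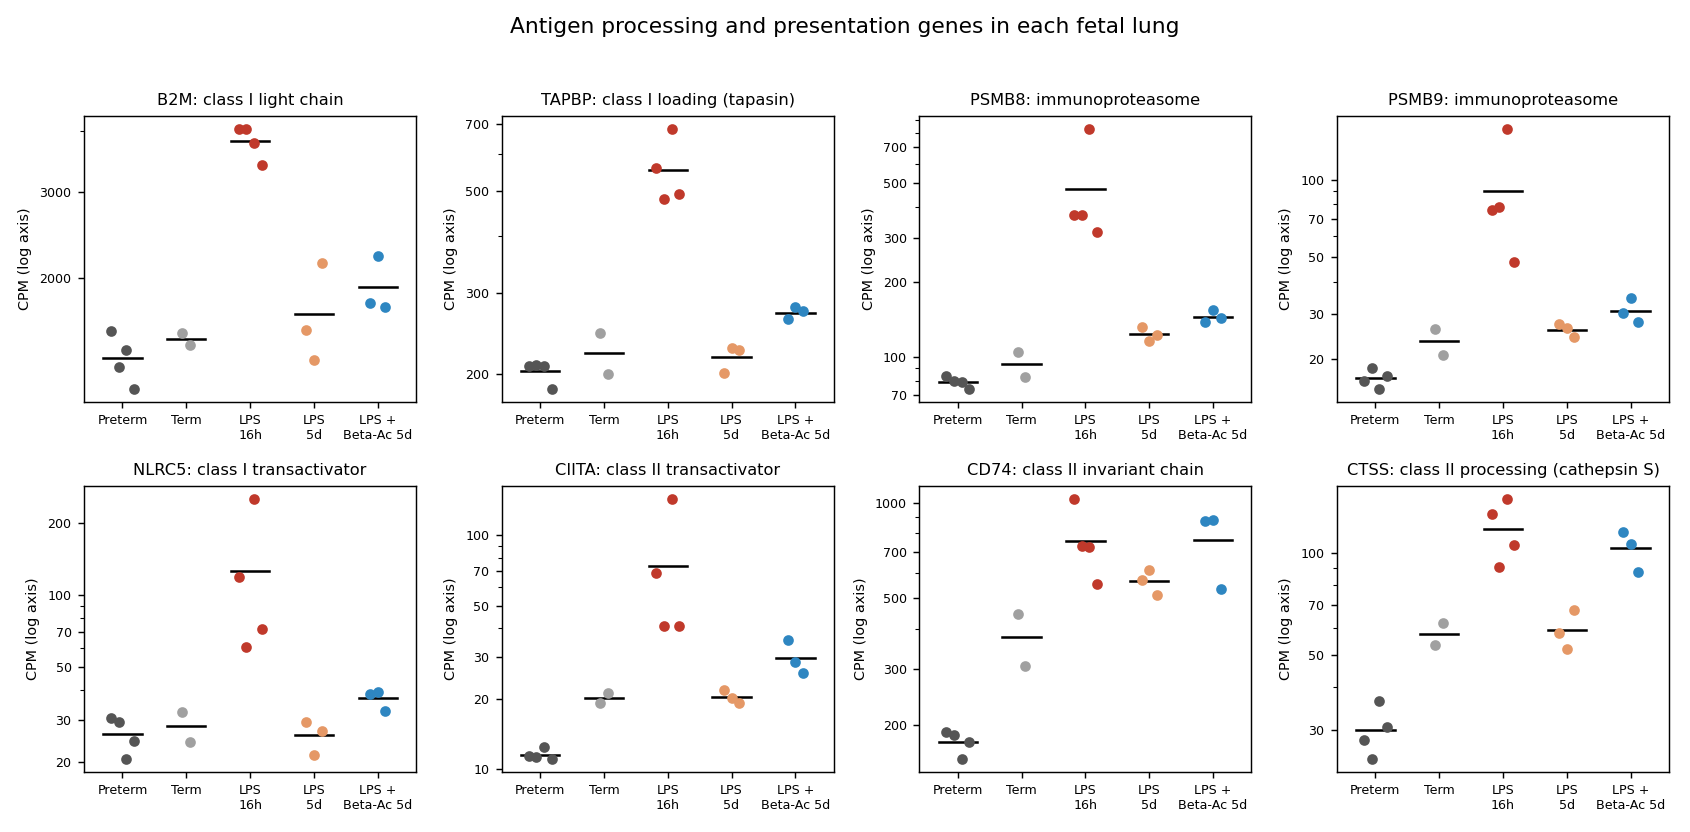
CPM of the 8 genes in each animal (log axis, 1 point per animal) in preterm controls, term controls, LPS 16h, LPS 5d and LPS + Beta-Ac 5d; horizontal bars are group means. LPS 16h is highest for the class I genes in the upper row and for NLRC5 and CIITA, whereas CD74 in LPS + Beta-Ac 5d (mean 763 CPM) is level with LPS 16h (mean 759 CPM).

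B2M, the light chain of every class I molecule, varied little within LPS 16h. Its level was 4036, 4033, 3772 and 3393 CPM in LPS 16h animals 026, 029, 035 and 038, against 1555, 1316, 1421 and 1187 CPM in preterm controls 092, 101, 113 and 209. The increase was 2.79-fold (log2 fold change 1.48 ± 0.14 SE, adjusted p = 7.74e-07 by limma). At 5 days after LPS it was 1564, 1359 and 2148 CPM in animals 239, 240 and 242, which overlapped the preterm controls (log2 fold change 0.28 ± 0.15 SE, adjusted p = 0.236 by limma). Animal 242 stood above every preterm control, and animal 240 lay inside their range.

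TAPBP, the loading chaperone, also separated fully at 16 hours and overlapped the controls at 5 days. Preterm controls lay between 186 and 210 CPM and LPS 16h animals between 481 and 683 CPM (log2 fold change 1.43 ± 0.11 SE, adjusted p = 1.10e-07 by limma). LPS 5d animals lay between 201 and 228 CPM, overlapping the preterm controls (log2 fold change 0.10, adjusted p = 0.632 by limma). The difference between 16 hours and 5 days was itself called for both genes, with LPS 16h 2.52-fold above LPS 5d for TAPBP and 2.29-fold for B2M.

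The immunoproteasome subunits had larger estimates than B2M and TAPBP, a difference that was not tested. PSMB8, which takes the place of PSMB5 in the proteasome core, was at 373, 374, 831 and 319 CPM in LPS 16h animals 026, 029, 035 and 038, against 83.6, 80.2, 79.1 and 74.5 CPM in the preterm controls. Its log2 fold change was 2.47 ± 0.22 SE (adjusted p = 4.64e-07 by limma), and without animal 035 it was 2.16. PSMB9, which takes the place of PSMB6, was at 47.8 to 158 CPM in LPS 16h and 15.3 to 18.4 CPM in preterm controls (log2 fold change 2.28 ± 0.25 SE, adjusted p = 4.38e-06 by limma). Animal 035 was the highest LPS 16h animal for TAPBP, PSMB8, PSMB9, NLRC5, CIITA and CTSS, but not for B2M or CD74.

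At 5 days PSMB8 and PSMB9 were lower than at 16 hours and above the preterm range. PSMB8 was at 132, 116 and 122 CPM in LPS 5d animals 239, 240 and 242, each above the highest preterm control. The estimate was 1.55-fold, which missed the threshold (log2 fold change 0.63 ± 0.23 SE, adjusted p = 0.0851 by limma). PSMB9 lay between 24.2 and 27.3 CPM in LPS 5d, again above all preterm controls (log2 fold change 0.63 ± 0.27 SE, adjusted p = 0.138 by limma). Both were called higher at 16 hours than at 5 days, 3.56-fold for PSMB8 and 3.15-fold for PSMB9.

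Transcript levels of an immunoproteasome subunit and of the constitutive subunit it replaces were set against each other within each library. The difference in log2 CPM between PSMB8 and PSMB5 was 0.47 ± 0.10 (SD, n = 4) in preterm controls and 2.47 ± 0.64 (SD, n = 4) in LPS 16h, with no overlap. It was 0.92 ± 0.14 (SD, n = 3) in LPS 5d, 1.05 ± 0.18 (SD, n = 3) in LPS + Beta-Ac 5d and 0.79 ± 0.13 (SD, n = 2) in term controls. All later and term animals therefore lay above the preterm range of 0.35 to 0.57 and below the LPS 16h range of 1.92 to 3.37. For PSMB10 and PSMB7, the corresponding pair, the difference was -2.03 ± 0.16 (SD, n = 4) in preterm controls, 0.02 ± 0.75 (SD, n = 4) in LPS 16h and -1.60 ± 0.25 (SD, n = 3) in LPS 5d. Here LPS 5d animal 242 (-1.89) and term control 201 (-1.87) lay inside the preterm range of -2.24 to -1.87. For PSMB9 and PSMB6 the difference was -1.75 ± 0.17 (SD, n = 4) in preterm controls, -0.32 ± 0.64 (SD, n = 4) in LPS 16h, -1.18 ± 0.04 (SD, n = 3) in LPS 5d, -1.04 ± 0.03 (SD, n = 3) in LPS + Beta-Ac 5d and -1.27 ± 0.08 (SD, n = 2) in term controls, and no animal of the other groups lay inside the preterm range. Since the lengths of the transcripts differ, the sign of a difference does not tell which subunit was more abundant; only its shift between groups can be read. These pairs were set up with the results known and were not tested.

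**Figure D2:**
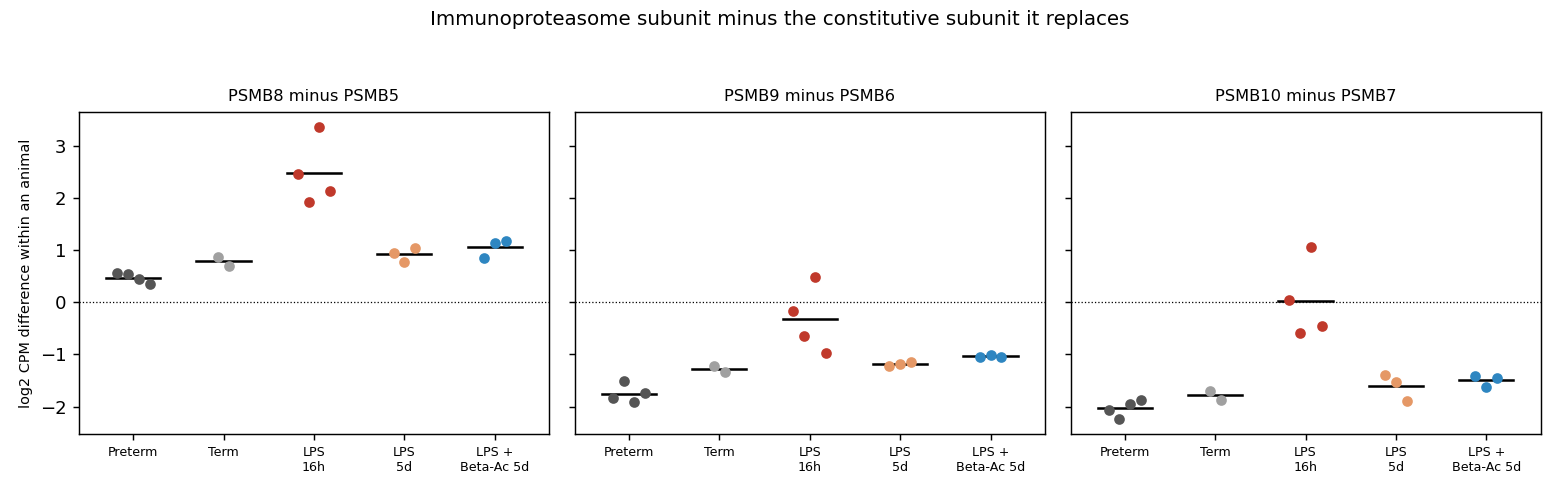
Within-animal difference in log2 CPM between an immunoproteasome subunit and the constitutive subunit it replaces, for 3 pairs (1 point per animal, bars are group means, dotted line at 0). LPS 16h lies highest in each pair, and the PSMB8 and PSMB5 difference stays above the preterm range in LPS 5d, LPS + Beta-Ac 5d and term controls.

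NLRC5, the class I transactivator, varied widely among the LPS 16h animals. It was at 119, 60.8, 254 and 72.3 CPM in LPS 16h animals 026, 029, 035 and 038, and at 30.4, 29.3, 20.6 and 24.5 CPM in the preterm controls. The lowest LPS 16h animal still had more than the highest control (log2 fold change 2.05 ± 0.33 SE, adjusted p = 2.22e-04 by limma), and the log2 fold change was 1.64 without animal 035. At 5 days it was at 29.3, 21.3 and 26.8 CPM, inside the preterm range, with a log2 fold change of -0.02 whose 95% interval ran from -0.78 to 0.75. LPS 16h lay 4.19-fold above LPS 5d (adjusted p = 4.34e-04 by limma).

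CIITA, the class II transactivator, lay close together in the preterm controls. They were at 11.3, 11.3, 12.4 and 11.1 CPM in animals 092, 101, 113 and 209, against 69.3, 40.8, 143 and 40.9 CPM in LPS 16h animals 026, 029, 035 and 038 (log2 fold change 2.46 ± 0.29 SE, adjusted p = 1.20e-05 by limma). LPS 5d animals were at 21.8, 20.1 and 19.2 CPM, all above the preterm controls, but the 1.76-fold difference missed the threshold (adjusted p = 0.102 by limma). The estimate without animal 035 was 2.07 for LPS 16h against preterm controls and 1.26 against LPS 5d on the log2 scale, and both comparisons were still called.

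CD74, the invariant chain, was called higher than in preterm controls at both times. It was at 1028, 728, 725 and 555 CPM in LPS 16h animals 026, 029, 035 and 038, and at 189, 185, 156 and 176 CPM in the preterm controls (log2 fold change 2.07 ± 0.19 SE, adjusted p = 6.87e-07 by limma). At 5 days it was at 569, 614 and 513 CPM, 3.20-fold above preterm controls (log2 fold change 1.68 ± 0.21 SE, adjusted p = 2.92e-04 by limma). The LPS 16h and LPS 5d animals overlapped, and their log2 difference of 0.39 had a 95% interval from -0.05 to 0.83 (adjusted p = 0.157 by limma).

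CTSS, the protease that removes CD74 from class II molecules, was intermediate at 5 days. It was at 130, 90.5, 144 and 105 CPM in LPS 16h and at 28.1, 24.6, 36.6 and 30.5 CPM in preterm controls (log2 fold change 1.96 ± 0.16 SE, adjusted p = 1.72e-07 by limma). At 5 days it was at 58.0, 51.8 and 67.6 CPM, above every preterm control and below every LPS 16h animal. Both distances were just under 2-fold: 1.98-fold above preterm controls (adjusted p = 0.00167 by limma) and 1.96-fold below LPS 16h (adjusted p = 4.23e-04 by limma).

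In the comparison of LPS 5d with preterm controls, 1 of the 8 genes, CD74, was called higher, against 2.6% of all genes. Without preterm control 113, or without LPS 5d animal 240, CTSS passed as well and the count was 2. The median log2 fold change of the 8 genes was 0.63, against 0.00 over all genes, and 5 of the 8 had every LPS 5d animal above every preterm control, against 13.6% of all genes. Between LPS 16h and LPS 5d, 6 of the 8 were called higher at 16 hours, against 8.02% of all genes, and all but CD74 separated fully, against 21% of all genes. The median log2 difference was 1.49. That CD74 was not called here while the class I genes were does not show that its course differed from theirs, which was not tested.

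**Figure D3:**
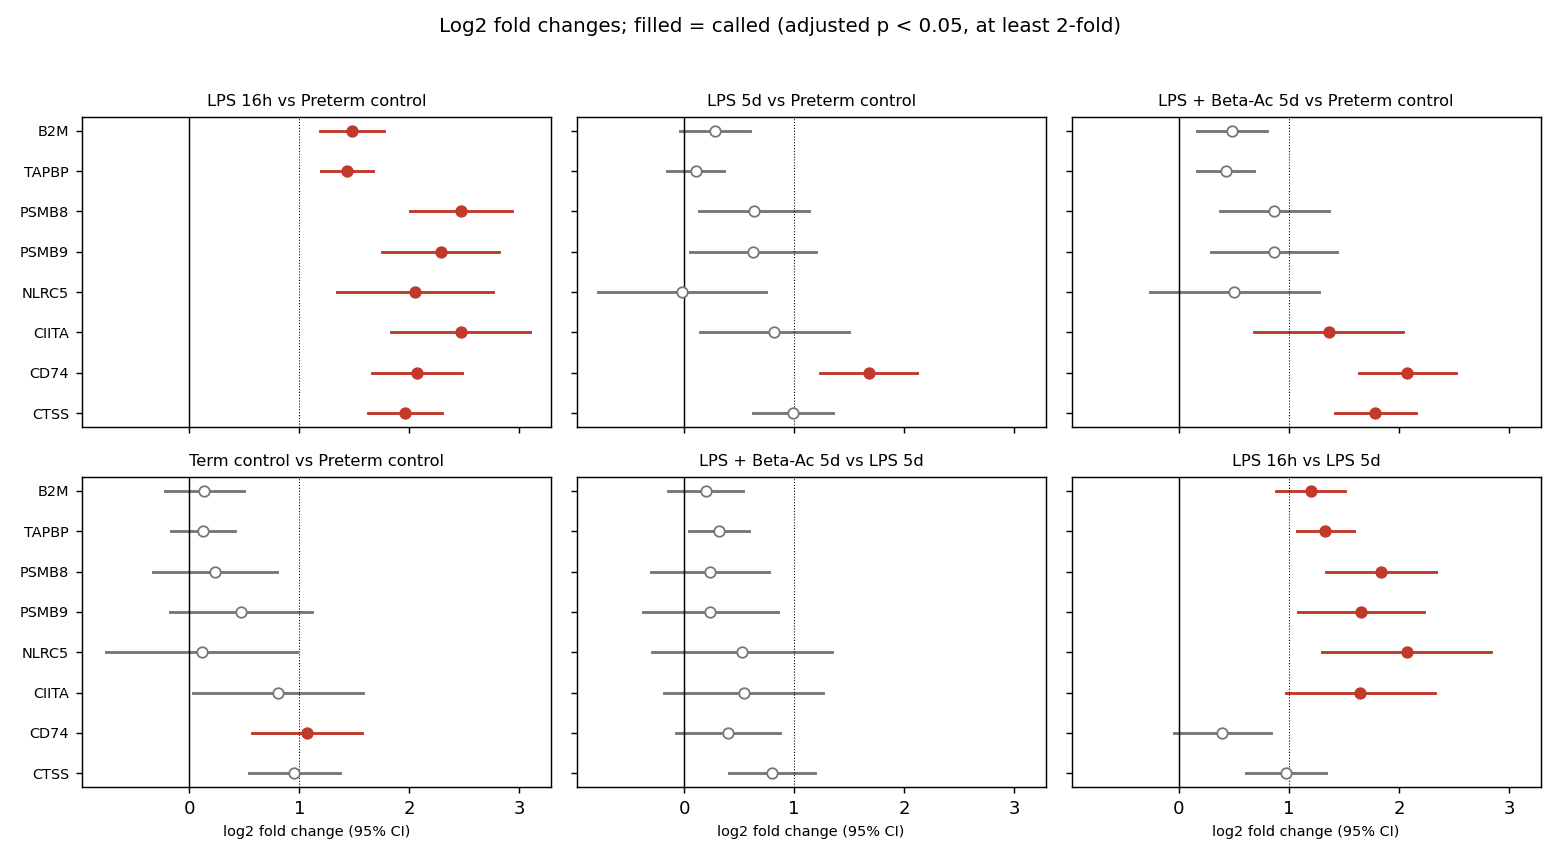
Log2 fold changes of the 8 genes (points) with 95% confidence intervals (lines) in 6 comparisons; filled points were called, the dotted line marks the 2-fold threshold. All 8 points are filled for LPS 16h vs preterm control, CD74 alone for LPS 5d and for term, CIITA, CD74 and CTSS for LPS + Beta-Ac 5d, and none for LPS + Beta-Ac 5d vs LPS 5d.

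With betamethasone given to the dam beside LPS, 3 of the 8 genes were called higher than in preterm controls after 5 days, CIITA, CD74 and CTSS, against 4.05% of all genes. CD74 was at 874, 882 and 533 CPM in animals 248, 249 and 255, 4.21-fold above preterm controls (adjusted p = 1.68e-05 by limma). CTSS was at 115, 106 and 88.0 CPM, 3.45-fold above (adjusted p = 1.24e-05 by limma), and CIITA was at 35.5, 28.6 and 25.6 CPM, 2.57-fold above (adjusted p = 0.00827 by limma). These 3 belong to the class II side of the pathway. Animal 255 was the lowest of the group for each of them.

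The class I genes were also above preterm controls in LPS + Beta-Ac 5d, by less than 2-fold. B2M was at 1743 to 2219 CPM (1.39-fold, adjusted p = 0.0372), TAPBP at 264 to 279 CPM (1.34-fold, adjusted p = 0.0234), PSMB8 at 138 to 154 CPM (1.82-fold, adjusted p = 0.0185) and PSMB9 at 27.8 to 34.4 CPM (1.82-fold, adjusted p = 0.0367), all by limma. NLRC5 was at 32.7 to 39.4 CPM and did not pass (1.42-fold, adjusted p = 0.378 by limma). In all 8 genes every LPS + Beta-Ac 5d animal lay above every preterm control, against 14.7% of all genes, and the median log2 fold change was 0.87.

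When LPS + Beta-Ac 5d was set directly against LPS 5d, 0 of the 8 genes were called by limma, and 0 by limma-voom, against 0.104% of all genes. All 8 estimates were higher with Beta-Ac (median log2 difference 0.36, against 0.00 over all genes), and 6 of the 8 separated fully, against 6.33% of all genes. At an unadjusted p below 0.05, 2 of the 8 passed, TAPBP and CTSS, against 4.82% of all genes in either direction. CTSS was 1.74-fold higher with a log2 difference of 0.80 and a 95% interval from 0.41 to 1.19 (adjusted p = 0.161 by limma). The intervals of the other log2 differences reached from -0.07 to 0.87 for CD74, from -0.18 to 1.27 for CIITA and from -0.30 to 1.34 for NLRC5, so differences of more than 2-fold in CIITA and NLRC5 could not be told from none with 3 animals in each group. No member was lower with Beta-Ac on average.

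In term controls, 1 of the 8 genes was called higher than in preterm controls, against 1.11% of all genes. CD74 was at 448 and 307 CPM in animals 200 and 201, 2.10-fold above preterm controls (log2 fold change 1.07 ± 0.23 SE, adjusted p = 0.0220 by limma). This call rests on animal 200, since without it the log2 fold change was 0.80 with an adjusted p of 0.226 by limma, and without preterm control 113 the adjusted p was 0.0609, when CTSS was called in its place (log2 fold change 1.06, adjusted p = 0.0180 by limma). CTSS was at 53.5 and 61.8 CPM, 1.94-fold above with an adjusted p of 0.0154 by limma. CIITA was at 19.2 and 21.2 CPM, close to the LPS 5d animals (1.75-fold above preterm controls, adjusted p = 0.239 by limma).

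B2M, TAPBP, PSMB8 and NLRC5 of the term controls overlapped the preterm controls, and 4 of the 8 genes separated fully, against 11.2% of all genes. The estimates of TAPBP and NLRC5 at term, 0.13 and 0.11 on the log2 scale, turned negative without animal 200. The higher levels at term thus lay with CD74, CTSS, CIITA and PSMB9, of which only CD74 was called.

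Ordered by group mean, LPS 16h was highest for 7 of the 8 genes and LPS + Beta-Ac 5d came next. For the 5 class I genes and CIITA, no LPS 16h animal overlapped the group below it. For CTSS, LPS 16h overlapped LPS + Beta-Ac 5d (90.5 to 144 against 88.0 to 115 CPM), and for CD74 the order of these groups was reversed, with overlapping values. For CD74, LPS 5d (513 to 614 CPM), term controls (307 to 448 CPM) and preterm controls (156 to 189 CPM) did not overlap either.

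Over the 16 animals, B2M, TAPBP, PSMB8, PSMB9 and NLRC5 correlated with each other with a Pearson r of 0.86 to 0.99 in log2 CPM. CD74 correlated with CTSS with an r of 0.90 and with NLRC5 with an r of 0.56. CIITA stood with both sides, with an r of 0.96 to PSMB9, 0.90 to CTSS and 0.78 to CD74. These values describe animals of 5 groups that differ in treatment, depth and cell content, and carry no test. Likeness over the 16 animals was also ranked among genes with a symbol, leaving out the antigen processing and presentation genes followed here. Those most like PSMB9 were APOL2 (r = 0.980), UBE2L6 (r = 0.980) and PLAAT4 (r = 0.976). PSMB8, left out of this ranking, had a higher r of 0.986 to PSMB9. Those most like CD74 were IFI30 (r = 0.963), PARVG (r = 0.962) and PTPN6 (r = 0.961). IFI30 encodes a thiol reductase of the class II pathway.

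The MHC chains themselves were taken as lists beside the 8 genes. They form families of near-identical and highly variable genes, and how reads were shared between family members is uncertain. For these and the later lists, the shares of all genes called higher than in preterm controls serve as a background. The shares were 8.3% in LPS 16h, 2.6% in LPS 5d, 4.05% in LPS + Beta-Ac 5d and 1.11% in term controls. Of 5 class I heavy chains, 4 were called higher in LPS 16h than in preterm controls: MAMU-A (log2 fold change 1.92), MAMU-F (1.67), Mamu-B (1.49) and MAMU-E (1.23). None was called in LPS 5d, and MAMU-A alone was called in LPS + Beta-Ac 5d. In LPS 5d all 5 had estimates above preterm controls, with log2 fold changes of 1.20 for MAMU-A and 1.19 for MAMU-F. Between LPS 16h and LPS 5d 0 of the 5 were called, against 8.02% of all genes, so a fall of the heavy chains by 5 days was not shown. Mamu-B missed only the 2-fold limit there (log2 difference 0.84, adjusted p = 0.0249 by limma). MAMU-A ran from 127 to 254 CPM in preterm controls and was at 614 and 125 CPM in the term controls 200 and 201, so these lay on opposite sides of the preterm range.

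Of 7 class II chains, 6 were called higher in LPS 16h, led by MAMU-DOB, MAMU-DRB1, MAMU-DRA and MAMU-DPA. MAMU-DRA, the alpha chain of the DR molecule, was at 455, 373, 277 and 358 CPM in LPS 16h animals 026, 029, 035 and 038, 191, 186 and 222 CPM in LPS 5d, 358, 291 and 238 CPM in LPS + Beta-Ac 5d and 95.3 to 115 CPM in preterm controls. Here animal 035 was the lowest of the LPS 16h animals, while it was the highest for CIITA. In LPS 5d 2 class II chains were called higher, MAMU-DRB1 and MAMU-DMB, in LPS + Beta-Ac 5d 4, and in term controls the same 2 as in LPS 5d. The summed level of the 7 chains was 225 to 260 CPM in preterm controls, 383 to 442 CPM at term, 819 to 1124 CPM in LPS 16h, 477 to 508 CPM in LPS 5d and 524 to 866 CPM in LPS + Beta-Ac 5d.

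MAMU-DOB encodes the beta chain of a modulator of class II peptide loading and lies next to TAP2. It was at 124, 94.5, 268 and 89.4 CPM in LPS 16h against 24.3 to 30.6 CPM in preterm controls. It was called higher in LPS 16h than in LPS 5d (log2 difference 1.69, adjusted p = 6.95e-04 by limma). In the same comparison MAMU-DRA (log2 difference 0.85, adjusted p = 6.98e-04 by limma) and MAMU-DRB1 (0.71, adjusted p = 0.0328 by limma) missed only the 2-fold limit. Animal 035 was the highest for MAMU-DOB, as for PSMB8 and PSMB9. MAMU-DOA, the partner chain, was at 2.41 to 7.96 CPM in LPS 16h and 2.62 to 6.56 CPM in preterm controls (adjusted p = 0.917 by limma).

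Further genes of peptide supply and loading for class I followed the members at 16 hours. Of 12 identifiers, 7 were called higher in LPS 16h, among them PSMB10 (log2 fold change 2.54) and PSME2, a subunit of the proteasome activator (2.28). PDIA3, a chaperone of the loading complex, was listed under 2 identifiers, both called. The more abundant had a log2 fold change of 1.59. The other lay near the floor, at 0.233 to 0.675 CPM in LPS 16h and at most 0.319 CPM in preterm controls. PSME2 was at 210 to 435 CPM in LPS 16h, 50.4 to 61.8 CPM in preterm controls and 60.9 to 71.4 CPM in LPS 5d. None of the 12 was called in LPS 5d, LPS + Beta-Ac 5d or term controls against preterm controls. Of 14 constitutive proteasome genes, 6 were called higher in LPS 16h, with a median log2 fold change of 0.89 over the list, and none in the other groups against preterm controls.

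Class II processing genes were called at 16 hours and at 5 days. Of 11, 3 were called higher in LPS 16h (IFI30, CTSH and CD63), 2 in LPS 5d (IFI30 and CTSH), 5 in LPS + Beta-Ac 5d (these 2 with CTSL, CTSB and LGMN, further lysosomal proteases) and 2 in term controls (IFI30 and CTSH). IFI30 was at 117 to 203 CPM in LPS 16h, 88.2 to 111 CPM in LPS 5d, 128 to 262 CPM in LPS + Beta-Ac 5d and 18.9 to 24.2 CPM in preterm controls. At term it was at 125 and 38.7 CPM, with animal 200 the higher, as for CD74. CTSF, another cathepsin, was the only gene of the list called lower in any comparison (log2 difference -1.26 in LPS 16h against LPS 5d, where 6.61% of all genes were called lower).

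Among 13 known regulators of MHC genes other than NLRC5 and CIITA, IRF1, IRF9 and IRF8 were called higher in LPS 16h than in preterm controls. The list did not move as one. In LPS 16h 5 of the 13 had lower estimates, though 0 were called lower: RFXAP (log2 fold change -0.66), CREB1 (-0.42), NFYC (-0.26), NFYB (-0.25) and RFXANK (-0.08). IRF1, which drives NLRC5, CIITA and the immunoproteasome genes in response to interferon gamma, was at 258, 376, 676 and 322 CPM in LPS 16h and 41.3 to 48.7 CPM in preterm controls (log2 fold change 3.08, adjusted p = 6.79e-08 by limma). Animal 035 was the highest for IRF1, IRF9 and IRF8, as for the 6 members named above. None of IRF1, IRF9 and IRF8 was called in LPS 5d, LPS + Beta-Ac 5d or term controls against preterm controls, and IRF1 was at 82.8, 72.6 and 58.6 CPM in LPS 5d. IRF8 in LPS + Beta-Ac 5d missed only the 2-fold limit (log2 fold change 0.85, adjusted p = 0.00567 by limma).

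Interferon gamma signalling genes gave 10 of 13 called higher in LPS 16h, led by the chemokines CXCL10, CXCL11 and CXCL9 and by IDO1, a tryptophan-degrading enzyme. CXCL10 was at 91.5, 101, 434 and 129 CPM in LPS 16h and at 0.139 to 0.618 CPM in preterm controls. IFNG itself, named here after its values were seen, was at 0.711, 0.293, 1.75 and 0.465 CPM in LPS 16h, with animal 035 again highest, and at 0 in 2 of the 4 preterm controls. In LPS 5d, CXCL10 and IDO1 were called higher than in preterm controls, and in LPS + Beta-Ac 5d IDO1 and IL18 were. IDO1 was the only gene of these lists other than the cell type markers called between LPS + Beta-Ac 5d and LPS 5d, with 97.0, 136 and 62.8 CPM against 27.9, 22.6 and 29.2 CPM (log2 difference 1.83, adjusted p = 0.0364 by limma).

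A T cell also needs co-stimulation by the cell that presents the peptide. Of 8 co-stimulatory and co-inhibitory genes tested, 5 were called higher in LPS 16h, led by CD274 (PD-L1), PDCD1LG2 (PD-L2), CD40 and CD86. In LPS 5d and in term controls PDCD1LG2 and CD86 were called higher, and in LPS + Beta-Ac 5d CD274 as well. CD40 was at 145 to 282 CPM in LPS 16h, 26.7 to 32.4 CPM in preterm controls and 44.8 to 49.6 CPM in LPS 5d.

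Markers of cells that carry class II molecules were also taken as lists. Of 15 macrophage and monocyte markers, 12 were called higher in LPS 16h, 10 in LPS 5d, 14 in LPS + Beta-Ac 5d and 5 in term controls, each against preterm controls. Their summed level was 181 to 301 CPM in preterm controls, 328 to 568 CPM in term controls, 1138 to 1314 CPM in LPS 16h, 370 to 437 CPM in LPS 5d and 631 to 1103 CPM in LPS + Beta-Ac 5d. CD14 weighed most in the sum of LPS 16h, with a mean of 562 CPM against 148 CPM in LPS + Beta-Ac 5d. The median log2 fold change of the 15 markers had the reverse order, 1.79 in LPS 16h and 2.51 in LPS + Beta-Ac 5d. MARCO, a scavenger receptor of alveolar macrophages, was at 0 in every preterm control. Animal 255, the lowest of LPS + Beta-Ac 5d for CD74, CTSS and CIITA, was also the lowest for the summed macrophage markers. This was not particular to macrophages. The same animal was lowest for most other summed lists, among them dendritic cell, B cell, T and NK cell and lung identity markers. It was not the lowest for neutrophil or endothelial markers.

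Of 12 dendritic cell markers, 5 were called higher in each of LPS 16h, LPS 5d and LPS + Beta-Ac 5d and none at term. At 16 hours they were led by BATF3, ITGAX, LAMP3 and CCR7, of which LAMP3 is also a gene of alveolar type 2 cells. CLEC9A, a receptor of cross-presenting dendritic cells, was called at 16 hours and at 5 days. XCR1, another such receptor, was called at 5 days and not at 16 hours. FLT3 and XCR1 were called lower in LPS 16h than in LPS 5d (log2 difference -1.54 and -1.42), where 6.61% of all genes were. Against preterm controls, 4 of the 12 markers had a lower estimate in LPS 16h. Of 8 B cell markers, 1 was called in LPS 16h, none in LPS 5d, 5 in LPS + Beta-Ac 5d and none at term, with a summed level of 31.8 ± 7.60 CPM (SD, n = 4) in preterm controls and 67.8 ± 20.4 CPM (SD, n = 3) in LPS + Beta-Ac 5d. Of 12 T and NK cell markers, 2, 1, 7 and 1 were called higher in LPS 16h, LPS 5d, LPS + Beta-Ac 5d and term controls. Of 8 alveolar type 2 markers, 4, 4, 6 and 0 were called higher in the same order. Of all genes, 8.3%, 2.6%, 4.05% and 1.11% were, so the 1 B cell marker called in LPS 16h was near that share. The part of these cells in the levels of the 8 genes was not tested.

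Neutrophil markers gave 5 of 8 called higher in LPS 16h, with a summed level of 1453 to 2178 CPM against 30.1 to 70.9 CPM in preterm controls, and 2, 6 and 2 in LPS 5d, LPS + Beta-Ac 5d and term controls. In LPS 16h the mean sum was 1716 CPM, of which S100A9 gave 958 CPM and S100A8 505 CPM. CXCR2, MPO and ELANE were not called in LPS 16h, with log2 fold changes of 0.09, 0.26 and -0.84. Of 5 lung identity markers, FOXF1 was called lower in LPS 16h than in preterm controls, where 6.07% of all genes were, and NKX2-1 and AGER lower than in LPS 5d. Of 8 endothelial markers, KDR was called lower in LPS 16h and CDH5 in term controls, where 0.953% of all genes were.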

How the data were processed

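The authors extracted RNA from frozen fetal lung, sequenced 75 bp paired-end reads, and assigned them to genes of the rhesus build Mmul_10 with kallisto and tximport. DESeq2 is also named in the submitters' processing notes and was used by the authors for their comparisons. Which versions and annotation release they used, and how kallisto's estimates became whole numbers, is not stated in the sources. Their deposited table gives whole-number counts by Ensembl gene, neither normalized nor filtered, for 16 animals. The paper and the labels name different extraction reagents.

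Groups came from the labels. Genes were named through a table of identifiers and symbols (17256 of 22515 matched). Genes with fewer than 10 counts in the median library (0.371 CPM) in at least 2 animals, or fewer than 15 in total, were left out. Counts were scaled by trimmed mean of M values (trim 30% and 5%), converted to log2 CPM (prior count 2), and fitted with limma 3.58.1 (trend and robust options) in R 4.3.3, with 1 mean per group over all 16 animals. A quasi-likelihood count test was not run. The fit was tested on simulated data. Fold changes are on the log2 scale with the prior count, which understates those of low genes. Each library came from a separate animal, and pairs of animals in a group differed by 32.5 to 173 times the sampling noise (chi-square per degree of freedom), so none was a repeat.

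The 8 genes with a row were all named. For the other lists, counts were given with up to 4 called genes of largest change per list and comparison. Genes named beyond these, for their levels or because they were not called, were chosen after their values were seen. Not every gene of the list of MHC regulators is reported here. Likeness was to be measured to TAP1 and CD74, and PSMB9 took the place of TAP1. The members and lists were chosen with earlier results of these data known. Alternatives were another linear model (limma-voom), other scalings, another prior count, no filter, only the groups compared, no fold threshold, no robust option, and leaving out each animal. A further alternative, leaving out animals 209 and 200 together, was chosen after seeing the data.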

Additional observations from a re-analysis of the deposited data

Results flagged for a closer look

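In the 16 groups of 4 animals examined (8 genes in preterm controls and in LPS 16h), 2 animals stood apart from the other 3 by Dixon's criterion, which chance alone meets in about 1 of 20 groups. For TAPBP, preterm control 209 was at a log2 CPM of 7.54, below the nearest other preterm control at 7.70. For PSMB8, LPS 16h animal 035 was at a log2 CPM of 9.70, above the nearest other LPS 16h animal at 8.55. Without animal 035, PSMB8 was still called in LPS 16h, with a log2 fold change of 2.16 against preterm controls and 1.53 against LPS 5d. Without animal 209, the log2 fold change of TAPBP was 0.38 in LPS + Beta-Ac 5d and 0.06 in LPS 5d against preterm controls.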

How the results depend on the processing

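The count of 8 genes called in LPS 16h against preterm controls and the count of 0 in LPS + Beta-Ac 5d against LPS 5d were the same under every alternative run, and in the former comparison the 8 log2 fold changes kept their direction. The count in LPS 16h against LPS 5d was 7 with no fold threshold and 6 or 7 with an animal left out, CTSS being the gene that crossed the fold limit without LPS 16h animal 029 or 038 or LPS 5d animal 242. In LPS 5d against preterm controls the count was 2, with CTSS, under median-of-ratios size factors, with only the groups compared and with no fold threshold, and 1 to 2 with an animal left out. In LPS + Beta-Ac 5d it was 7 with no fold threshold and 3 with any animal left out. In term controls it was 2 with library totals only and with no fold threshold, 0 to 1 with an animal left out (the 1 gene without preterm control 113 being CTSS in place of CD74), and 0 with animals 209 and 200 both left out, when CD74 had a log2 fold change of 0.80. The direction of NLRC5 in LPS 5d turned (0.011 under median-of-ratios size factors and 0.0105 with only the groups compared, -0.13 to 0.11 with an animal left out), and so did TAPBP and NLRC5 in term controls (-0.021 to 0.28 and -0.10 to 0.33 with an animal left out, -0.0625 and -0.13 with animals 209 and 200 left out). The causes were not tested. Scaling by library totals only moved the median of all genes by -0.20 in LPS 16h against preterm controls and by -0.19 against LPS 5d, and the median of the 8 genes to 1.85 and 1.30. No paired analysis was possible because the animal numbers of the groups do not overlap. Groups of 2 to 4 animals limit the precision, and the lowest level of any of the 8 genes was 11.1 CPM.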
